A study of Mus musculus with 6 samples.

Results

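Sorafenib (Sora) is a kinase inhibitor used in liver cancer. To describe what it did to the least studied part of the transcriptome of regulatory T (Treg) cells, the expressed genes that carry only a provisional mouse symbol were examined. These are genes named Gm with a number, given to predicted gene models, and genes whose symbol ends in Rik, given to cDNA clones of the RIKEN collection. The members were chosen by their symbol and by their level in these same libraries, at least 1 CPM (counts scaled to the library total) in at least 3 of the 6 libraries. Of 5790 Gm and Rik symbols in the table of 22939 genes, 637 met this rule, 337 with a Gm symbol and 300 with a Rik symbol. The other 5153 lay under the threshold.

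The cells came from C57BL/6J-background mice that carry a Foxp3-GFP knock-in, in which a green protein marks cells expressing Foxp3. Naive CD4+ T cells were differentiated into Treg cells in culture. Per the study's methods for such cultures, anti-CD3, anti-CD28 and TGF-β1 were used for this, with antibodies against interferon-γ and IL4. These were shared by both groups, either without Sora (ctrl-Treg, n = 3 libraries) or with it (Sora-Treg, n = 3 libraries). GFP+ cells were sorted and sequenced. The Sora dose of these libraries was not given in the sources used here, and cells made in culture limit the groups as a model of Treg cells in tissue.

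Total counts were 30727686 to 37717324 per library, at which 3 counts correspond to 0.0795 to 0.0976 CPM, for counting error only. Foxp3, the defining factor of Treg cells, was at 262 to 281 CPM in ctrl-Treg and 257 to 267 CPM in Sora-Treg libraries per library total. Scaled for composition with TMM, its means were 259 ± 8.99 and 272.3 ± 4.75 CPM (SD, n = 3, edgeR adjusted p = 0.0405), so the order of the groups turns with the scale. The 6 T and Treg cell markers, Il2ra among them, summed to 3905 to 3935 and 6408 to 6493 CPM per library total, the scale of the marker sums that follow. Most of this rise was that of Il2ra (1992 to 2048 and 3596 to 3687 CPM) and Ctla4 (386 to 409 and 1037 to 1088 CPM). Cd3e and Tnfrsf18 were also higher in Sora-Treg libraries. Cd4 was lower per library total, at 705 to 707 and 661 to 695 CPM. With TMM scaling Cd4 was higher, at 679 ± 2.08 and 709 ± 17.5 CPM (SD, n = 3, edgeR adjusted p = 0.0416), so its order turned with the scale too. Summed over myeloid markers, the level was 25.5 to 96.4 CPM in ctrl-Treg and 19.8 to 40.8 CPM in Sora-Treg libraries, highest in ctrl-Treg libraries 1 and 2. Of the 637 members, 1 (1110002J07Rik, named for this pattern after its values were seen) lay in ctrl-Treg library 3 under 0.5 times its level in both other ctrl-Treg libraries. Summed B cell markers were at 1.59 to 2.48 and 0.241 to 0.351 CPM, summed CD8 T cell markers at 13.7 to 15.7 and 12.1 to 13.3 CPM, and erythroid markers at most at 0.163 CPM in any library. The part of these other cells in the results was not tested. In bulk libraries, fewer cells of a type and less RNA per cell cannot be told apart.

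A provisional symbol says how a gene was found and not what it does. Long non-coding RNAs (lncRNAs) are transcribed and often spliced but are not known to be translated, and many lie next to, across from or inside protein-coding genes, where some are known to affect the neighbour in cis and others are by-products of its transcription. Other such symbols belong to proteins, several of which have since received functional names. Some also cover the precursor transcripts of small RNAs, such as microRNAs (miRNAs) and small nucleolar RNAs (snoRNAs), which are cut out of their host. RefSeq (GRCm38.p6) listed 406 members as lncRNA, 211 as protein-coding and 19 as pseudogenes, and 1 was not found there.

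Members and genes left out lay close together at the threshold. Just inside it, the third highest library was at 1.01 CPM for each of Gm6155, Gm41098 and Gm12657. Just outside it, the same value was 0.998 CPM for 2410022M11Rik and 0.993 CPM for Gm51454 and Gm31332. The rule was met in all 6 libraries by 469 members, in 5 by 38, in 4 by 42 and in 3 by 88. In 45 of the last group the 3 libraries were exactly those of Sora-Treg cells and in 14 exactly those of ctrl-Treg cells, so these 59 entered through the group in which they were high and are described with no p. The remaining 578 reached 1 CPM in libraries of both groups.

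The sequences that belong to the results that follow come in 2 sets. The first holds the 250 bases before the start of the 3 rising and 3 falling members with the largest changes, at a mean of at least 2 CPM, for which RefSeq gives a start at the end of the gene, shown because they are the DNA next to the largest changes. Capitals mark matches to any of 7 short motifs on either strand.
2610528A11Rik, chr14:37110102-37110351, minus strand: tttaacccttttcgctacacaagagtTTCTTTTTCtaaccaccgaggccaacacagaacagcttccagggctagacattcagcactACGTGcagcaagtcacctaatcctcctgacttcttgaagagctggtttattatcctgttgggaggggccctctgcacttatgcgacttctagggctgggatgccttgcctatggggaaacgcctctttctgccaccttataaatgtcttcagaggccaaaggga
9530082P21Rik, chr17:23748986-23749235, plus strand: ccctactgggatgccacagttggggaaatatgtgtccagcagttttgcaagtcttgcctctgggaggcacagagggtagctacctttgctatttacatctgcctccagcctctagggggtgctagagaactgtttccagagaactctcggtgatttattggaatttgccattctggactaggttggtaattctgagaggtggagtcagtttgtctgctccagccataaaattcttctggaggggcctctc
Gm32092, chr14:55783829-55784078, plus strand: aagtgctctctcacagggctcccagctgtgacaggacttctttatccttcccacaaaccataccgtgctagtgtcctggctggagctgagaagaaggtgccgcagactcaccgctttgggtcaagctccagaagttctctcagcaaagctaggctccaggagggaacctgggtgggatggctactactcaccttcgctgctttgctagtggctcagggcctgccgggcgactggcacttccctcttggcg
1700007K13Rik, chr2:28466325-28466574, minus strand: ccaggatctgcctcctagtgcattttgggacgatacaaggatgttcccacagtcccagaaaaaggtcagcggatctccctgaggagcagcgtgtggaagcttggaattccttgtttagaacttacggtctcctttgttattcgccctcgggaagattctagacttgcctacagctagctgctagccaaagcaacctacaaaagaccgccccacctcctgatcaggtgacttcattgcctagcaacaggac
A930001C03Rik, chr19:4439073-4439322, plus strand: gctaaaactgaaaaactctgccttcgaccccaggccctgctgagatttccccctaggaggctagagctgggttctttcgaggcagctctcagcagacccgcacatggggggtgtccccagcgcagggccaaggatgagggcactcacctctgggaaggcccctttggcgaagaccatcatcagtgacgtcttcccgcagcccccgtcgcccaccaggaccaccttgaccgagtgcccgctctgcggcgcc
D030028A08Rik, chr11:96943896-96944145, plus strand: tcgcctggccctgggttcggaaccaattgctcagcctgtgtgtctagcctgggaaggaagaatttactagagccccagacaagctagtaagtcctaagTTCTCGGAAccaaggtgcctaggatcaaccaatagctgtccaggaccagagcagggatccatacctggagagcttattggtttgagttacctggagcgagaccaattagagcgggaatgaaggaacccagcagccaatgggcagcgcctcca

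The motifs searched were TGAGTCA (AP-1), TGACGTCA (CRE), TTCNNNGAA (GAS), GAAANNGAA (an interferon response core), TGTTTAC (FOXO), ACGTG (hypoxia) and TGATGNAA (ATF4). Of these letters, the window of 2610528A11Rik held GAAANNGAA on the minus strand of the gene, from 224 bases before the start, and ACGTG on the plus strand, from 164 bases before it. The window of D030028A08Rik held TTCNNNGAA from 152 bases before the start. The other 4 windows held none of the 7. Among 32851 promoter windows of this length in RefSeq, 7.13% held GAAANNGAA, 16.6% held ACGTG and 7.02% held TTCNNNGAA. A match is a description of letters and not a bound site.

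The second set holds the miRNAs inside A330023F24Rik, a lncRNA whose span on the plus strand contains Mir29b-2 and Mir29c on the same strand. They are shown because their genes lie inside a host described below. Whether their precursors change with the host was not tested. Capitals mark the seed (bases 2 to 8), with which a miRNA pairs to its targets.
mmu-miR-29b-3p: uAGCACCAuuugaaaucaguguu
mmu-miR-29c-3p: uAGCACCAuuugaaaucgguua
mmu-miR-29b-2-5p: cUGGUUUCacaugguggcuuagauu
mmu-miR-29c-5p: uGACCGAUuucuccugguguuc

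The 3p forms share the seed AGCACCA, while the 5p forms have different seeds. The miR-29 family is known for limiting interferon-γ and T-bet in T cells. Mature miRNAs were not measured in these libraries.

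Gm36600 (chr4:150705136-150739130), a lncRNA with no known role, showed the largest change of all members. It had 7, 1 and 1 counts in ctrl-Treg libraries and 469, 546 and 603 counts in Sora-Treg libraries. It was thus close to the limit of 3 counts in ctrl-Treg cells and well above it in every Sora-Treg library. TMM-scaled levels, that is CPM corrected for library composition, were 0.0789 ± 0.0857 and 16.5 ± 0.916 CPM (SD, n = 3), and the log2 ratio of Sora-Treg to ctrl-Treg levels (log2 fold change) was 7.57 ± 0.23 (SE). The ratio of summed CPM was 183 (95% exact counting interval 96.0 to 400.3), and the log2 ratio was 8.97 without ctrl-Treg library 1, which held 7 of the 9 ctrl-Treg counts. The interval covers counting error only and leaves out the spread between libraries. No p is given, since the gene entered through Sora-Treg libraries alone.

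No gene of the table overlapped Gm36600, and the genes within 250 kb of it did not change alike. Rere, a transcriptional corepressor gene 83.2 kb away, changed by -0.27 ± 0.04 on the log2 scale (SE, with adjusted p = 7.76e-07). Errfi1, a feedback inhibitor of EGF receptor signaling at 115 kb, rose by 0.99 ± 0.07 (SE, with adjusted p = 4.63e-11). Park7, a redox-protective protein gene at 158 kb, rose by 0.67 ± 0.03 (SE, with adjusted p = 5.47e-14). Tnfrsf9, the costimulatory receptor 4-1BB at 181 kb, rose from 505 ± 4.56 to 2379 ± 11.4 CPM, a log2 ratio of 2.24 ± 0.02 (SE, with adjusted p = 1.32e-26). The nearest gene, Slc45a1 at 53.0 kb, had 6 counts over all libraries and was not tested.

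**Figure D1:**
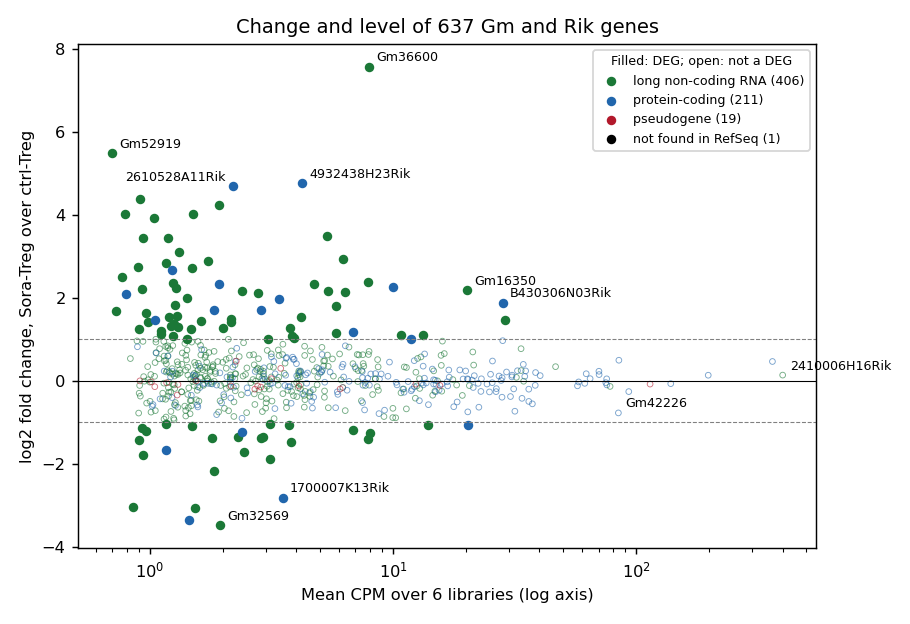
Each point is 1 of the 637 Gm and Rik genes, with its mean CPM over the 6 libraries on a log axis and its log2 fold change of Sora-Treg over ctrl-Treg cells, colored by RefSeq gene type and filled for genes past both call limits (DEGs). Gm36600 lies alone at 7.57, and most filled points sit at low CPM, with none at a mean of 50 CPM or more.

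Differentially expressed genes (DEGs) were those whose log2 ratio was above 1 or below -1 at an adjusted p of less than 0.05 by edgeR. Of the 637 members, all of which entered the test, 70 (10.99%) were DEGs with a higher and 28 (4.40%) with a lower level in Sora-Treg cells, beside 6.3% and 4.97% of the 13463 genes tested. The members just described as present at 1 CPM in 1 group only supplied 39 of the 70 and 11 of the 28. Among the 578 seen in both groups, 31 (5.36%) were higher and 17 (2.94%) lower. The change of a member partly decides whether it passes in both groups, so these shares had to be smaller. Put through the same filter, the 10901 other genes had 4.26% higher and 2.97% lower DEGs. These pooled shares are not matched for level. By band of mean CPM under this filter, DEGs were 3.45% of members and 12.8% of other genes under 2 CPM. They were 12.4% and 20.4% at 2 to 5 CPM, and 10.1% and 11.1% at 5 to 20 CPM. At 20 CPM or more they were 5.71% and 3.94%. At any fold, 176 members (27.6%) were higher and 109 (17.1%) lower at an adjusted p under 0.05, beside 29.7% and 29.9% of all genes. Scaling by library totals alone, which shifts the median gene to a log2 ratio of -0.12, turned this split to 139 higher and 156 lower. With TMM scaling, 45 of the 176 and 12 of the 109 had entered through 1 group alone, so their change was part of their choice. The 578 seen in both groups held 131 higher (22.7%) and 97 lower (16.8%) at any fold, shares that this filter also lowers. Libraries of both groups were fully separate for 333 members (52.3%), beside 63.7% of all genes, with 194 higher and 139 lower in Sora-Treg cells. The 333 include members that entered through 1 group alone and were not counted without them.

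Members were expressed at low levels. The median CPM was 3.03 for members and 33.0 for the 11124 other genes at the same CPM floor. DEGs were 52 of 229 members with a mean under 2 CPM (22.7%), 25 of 187 at 2 to 5 CPM (13.4%), 17 of 151 at 5 to 20 CPM (11.3%) and 4 of 70 at 20 CPM or more (5.71%). The lowest band holds most members that reached 1 CPM in 1 group only, which supply 50 of the 98 DEGs, so the choice of members sets part of this order. Among the 469 members at 1 CPM in all 6 libraries, 7.68% were DEGs, with 0 of 72, 17 of 178, 15 of 149 and 4 of 70 in the same bands. Among other protein-coding genes under 5 CPM, DEGs were 191 higher and 202 lower of 1400. Among members of the same type and level they were 9 higher and 4 lower of 86. These shares describe the classes and were not tested against each other.

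By type, DEGs were 57 higher (14.04%) and 23 lower (5.67%) of the 406 lncRNAs, and 13 higher (6.16%) and 5 lower (2.37%) of the 211 protein-coding members. Of these, 358 lncRNAs and 200 protein-coding members reached 1 CPM in libraries of both groups. The rest entered through 1 group alone, where most were DEGs, so the choice of members sets part of the difference between the types. The median log2 ratio was 0.16 for lncRNAs and 0.02 for protein-coding members, against -0.004 for all genes. With libraries scaled by their totals, the median of all members moved from 0.08 to -0.03 and that of all genes to -0.12. Of the 19 pseudogenes, 2 had an unadjusted p under 0.05, and none passed after adjustment with TMM-scaled edgeR or with DESeq2. In other fits Gm14681 passed, with an adjusted p of 6.52e-05 when libraries were scaled by their totals. The 98 other lncRNA genes at the same floor, those with a proper name, had 9 higher and 5 lower DEGs and a median of 0.06. Their levels were higher, at a median of 6.33 CPM against 2.15 CPM for member lncRNAs. Under 5 CPM, the 44 other lncRNAs had 13.6% higher and 6.82% lower DEGs and a median log2 ratio of 0.26. The 315 member lncRNAs under 5 CPM had 14.3% and 6.03% and a median of 0.15. Gm symbols, of which more are lncRNAs, had 51 higher and 13 lower DEGs, and Rik symbols 19 and 15.

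**Figure D2:**
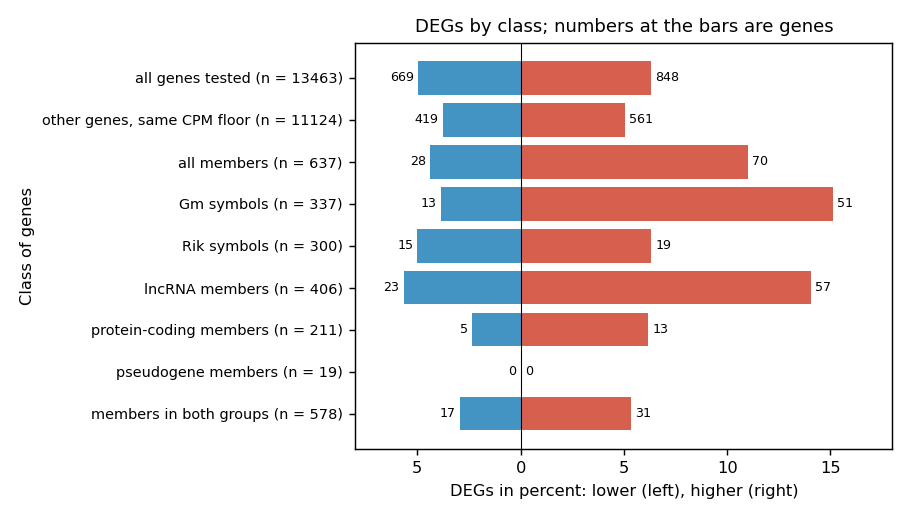
Bars give the percent of the genes of each class that were DEGs lower (left) or higher (right) in Sora-Treg cells, with the number of genes at each bar and the class size beside its name. lncRNA members reach 14.04% higher, a share that includes members that entered through 1 group alone. Members seen at 1 CPM in both groups reach 5.36%, a share that this filter lowers by construction, and all genes tested 6.3%.

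The summed level of all members changed direction with the scale. It was 6156 ± 28.8 CPM in ctrl-Treg and 6072 ± 36.3 CPM in Sora-Treg libraries per library total, and 5918 ± 21.2 and 6323 ± 48.2 CPM with TMM scaling (SD, n = 3). The protein-coding sum turned in the same way, from 3856 ± 17.5 and 3671 ± 27.5 CPM per library total to 3707 ± 19.0 and 3823 ± 33.5 CPM with TMM scaling. The lncRNA sum was higher in Sora-Treg libraries on both scales, at 2085 to 2125 and 2214 to 2237 CPM per library total. The pseudogene sum was lower on both, at 188 to 198 and 164 to 170 CPM. Without the 59 members that reached 1 CPM in 1 group only, the lncRNA sum was 2063 ± 21.2 and 2133 ± 13.2 CPM per library total, and 1983 ± 14.1 and 2221 ± 17.6 CPM with TMM scaling. As the choice of members used these libraries, the sums are given with no test.

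Among protein-coding members, the largest changes were rises. 4932438H23Rik (chr16:91054877-91130103), a gene of no known function, was at 0.0762, 0.495 and 0.376 CPM in ctrl-Treg and 8.01, 7.40 and 9.89 CPM in Sora-Treg libraries. Its log2 ratio was 4.76 ± 0.28 (SE), with no p because it reached 1 CPM in Sora-Treg cells only.

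2610528A11Rik (chr14:37102140-37110101), whose other name is Gpr15l, encodes a secreted ligand of the receptor GPR15, which guides T cells to the large intestine. It was at 0.279, 0.0550 and 0.157 CPM in ctrl-Treg and 4.38, 4.93 and 3.90 CPM in Sora-Treg libraries, with a log2 ratio of 4.69 ± 0.34 (SE). It reached 1 CPM in Sora-Treg libraries only, so no p is given, and each ctrl-Treg value was near the counting limit. The gene of its receptor, Gpr15, rose with it, from 0.663 to 1.37 CPM in ctrl-Treg libraries to 6.23 to 6.75 CPM in Sora-Treg libraries (log2 ratio 2.74 ± 0.21, SE, with adjusted p = 8.47e-11).

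B430306N03Rik (chr17:48315279-48326511), also named Treml6 after the TREM family of surface receptors, was among the more abundant members that changed. It was at 13.2, 12.9 and 10.8 CPM in ctrl-Treg and 45.3, 44.3 and 46.9 CPM in Sora-Treg libraries (log2 ratio 1.88 ± 0.07, SE, with adjusted p = 2.64e-16). Its neighbour on the same strand, Treml2, of the same family, rose by 1.02 ± 0.03 (SE, with adjusted p = 5.61e-19).

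Gm30732, a predicted protein-coding gene 0.805 kb downstream of the spermine oxidase gene Smox, rose from 3.56 ± 0.314 to 16.97 ± 1.46 CPM (log2 ratio 2.25 ± 0.11, SE, with adjusted p = 3.09e-14). Smox itself rose by 1.12 ± 0.04 (SE, with adjusted p = 1.09e-17). 6430571L13Rik rose from 19.4 ± 0.835 to 37.8 ± 1.73 CPM, which was just under a doubling (log2 ratio 0.97 ± 0.06, SE, with adjusted p = 6.03e-12).

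A pair of overlapping genes of the MHC class I region on chromosome 17 was higher in Sora-Treg libraries. Gm10499 was at 0.643 ± 0.287 and 3.31 ± 1.10 CPM and Gm8909 (also named H2-gs17) at 0.338 ± 0.225 and 2.21 ± 0.510 CPM (SD, n = 3). Both lie on the same strand and share part of their span, so counts of one cannot be told apart from the other. They were named after their values were seen.

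Falls among protein-coding members were fewer. 1700007K13Rik (chr2:28462001-28466324) was at 5.44, 6.07 and 6.39 CPM in ctrl-Treg and 1.35, 0.439 and 0.759 CPM in Sora-Treg libraries (log2 ratio -2.82 ± 0.24, SE, with adjusted p = 9.93e-10). It overlaps Mrps2, a gene of the mitochondrial ribosome on the opposite strand, which changed by -0.38 ± 0.07 (SE, with adjusted p = 2.83e-05). 2900026A02Rik, also named Kiaa1671, fell from 27.0 ± 1.26 to 12.9 ± 0.866 CPM (log2 ratio -1.06 ± 0.08, SE, with adjusted p = 2.89e-11), and 1500009L16Rik, also named OCC-1, from 3.303 ± 0.273 to 1.40 ± 0.266 CPM.

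Smaller falls that passed the p limit and not the fold limit were those of Gm42226 (106 ± 4.96 to 61.6 ± 1.66 CPM), 4930523C07Rik (39.2 ± 1.95 to 23.5 ± 1.85 CPM) and 2610002M06Rik (25.2 ± 1.27 to 14.96 ± 0.571 CPM, SD, n = 3). 2610002M06Rik has the name Chmp1b2 and belongs to the ESCRT-III family, which cuts membranes. Their log2 ratios were -0.78, -0.74 and -0.75 in that order.

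Of the list of 8 interferon-inducible GTPase genes with provisional symbols, 2 were members. Gm12250, known as Irgb10, which attacks the membranes of intracellular bacteria, was at 21.4, 21.1 and 21.6 CPM in ctrl-Treg and 13.5, 14.8 and 13.2 CPM in Sora-Treg libraries. It fell by 0.63 ± 0.08 on the log2 scale (SE, with adjusted p = 2.09e-07). Gm12185 was at 3.87 ± 0.339 and 3.51 ± 0.276 CPM and did not pass (log2 ratio -0.14 ± 0.16, SE, with adjusted p = 0.463). Another 4 lay under the CPM threshold, with 39 to 142 counts over all libraries, and 2 were not analysed here.

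Of 11 Rik and Gm genes on a list of genes with a known role, 5 were members and 6 were not analysed here. 2610507B11Rik (Kiaa0100), of the bridge-like lipid transfer proteins, rose from 307 ± 4.43 to 424 ± 5.59 CPM (log2 ratio 0.46 ± 0.03, SE, with adjusted p = 6.97e-13). Its relative 4932438A13Rik (Kiaa1109) was at 189 ± 0.750 and 207 ± 12.3 CPM, with a log2 ratio of 0.13 ± 0.04 (SE, with adjusted p = 0.00300) that no longer passed with libraries scaled by their totals (0.02). 2700049A03Rik (Talpid3), needed to build cilia, fell by 0.26 ± 0.07 (SE, with adjusted p = 0.00193). The zinc finger genes Gm14295 and Gm14326 did not pass (edgeR adjusted p = 0.565 and 0.410).

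Levels of different genes can be compared per length, as FPKM. The highest was 2410006H16Rik, a lncRNA that hosts Snord49a, Snord49b and Snord65, with 855 to 871 FPKM in ctrl-Treg and 862 to 894 FPKM in Sora-Treg libraries. In FPKM its groups overlapped, and its call in the count fit (log2 ratio 0.14 ± 0.03, SE, with adjusted p = 1.11e-04) was lost with libraries scaled by their totals (0.02). The pseudogene Gm14681 followed with a mean of 199 FPKM and 1110038B12Rik, the host of Snord52, with 132 FPKM. Of these, Gm14681 did not pass with TMM scaling (edgeR adjusted p = 0.0679), while 1110038B12Rik fell by 0.14 ± 0.04 on the log2 scale (SE, with adjusted p = 0.00801) and no longer passed without ctrl-Treg library 1.

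Next came 1810037I17Rik, which encodes another-regulin, a micropeptide that inhibits the calcium pump of the endoplasmic reticulum. It was at 69.1, 72.7 and 71.1 CPM in ctrl-Treg and 99.6, 99.3 and 101 CPM in Sora-Treg libraries (log2 ratio 0.49 ± 0.04, SE, with adjusted p = 1.08e-10). The remaining members with the highest FPKM were 9530068E07Rik, 1810058I24Rik, Gm13546 and 2610507B11Rik, at means of 56.2, 48.2, 45.9 and 44.6 FPKM. Gm13546, a lncRNA on the strand opposite to the T cell adhesion regulator Cytip, rose by 0.34 ± 0.05 (SE, with adjusted p = 2.83e-06). 1810058I24Rik, the mitochondrial micropeptide Stmp1, rose by 0.21 ± 0.07 (SE, with adjusted p = 0.00843), which was not past the threshold with libraries scaled by their totals or without Sora-Treg library 1. 1600014C10Rik, among the 8 with the highest CPM, fell from 101 ± 3.07 to 84.5 ± 1.88 CPM. Of the 19 members at a mean of 50 CPM or more, 7 were higher and 5 lower at an adjusted p under 0.05, beside 29.7% and 29.9% of all genes tested. Of the same 19, 13 had an unadjusted p under 0.05, and none was a DEG with edgeR or DESeq2.

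Among lncRNAs with a mean of at least 2 CPM, the largest rises after Gm36600 were those of 9530082P21Rik, Gm32092, Gm17767 and Gm39759. 9530082P21Rik (chr17:23749236-23754065) was at 0.838, 0.934 and 0.939 CPM in ctrl-Treg and 11.7, 9.03 and 9.83 CPM in Sora-Treg libraries (log2 ratio 3.49 ± 0.17, SE, with no p by the rule on 1 group). It overlaps Flywch1 on the opposite strand, which rose by 0.88 ± 0.04 (SE, with adjusted p = 5.50e-14).

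Gm32092 (chr14:55784079-55793781) was at 1.70, 1.24 and 1.503 CPM in ctrl-Treg and 10.7, 11.95 and 11.3 CPM in Sora-Treg libraries (log2 ratio 2.93 ± 0.14, SE, with adjusted p = 3.67e-14). It overlaps Ripk3, the kinase of necroptosis, on the opposite strand. Ripk3 rose by 0.44 ± 0.05 (SE, with adjusted p = 5.61e-08). Gm17767 rose from 2.62 ± 0.179 to 13.5 ± 0.762 CPM (log2 ratio 2.37 ± 0.12, SE, with adjusted p = 4.62e-14).

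Gm39759 (chr2:11693611-11699526) begins 0.417 kb after the end of Il2ra, on the same strand. Il2ra encodes CD25, the high-affinity chain of the interleukin-2 receptor that Treg cells carry. Gm39759 was at 1.88, 1.24 and 1.66 CPM in ctrl-Treg and 9.36, 7.47 and 7.47 CPM in Sora-Treg libraries (log2 ratio 2.34 ± 0.17, SE, with adjusted p = 5.76e-11). Il2ra rose by 0.97 ± 0.02 (SE, with adjusted p = 1.85e-20). Il15ra, 5.65 kb beyond Gm39759, was at 10.2 ± 1.09 and 11.1 ± 0.339 CPM and did not pass (edgeR adjusted p = 0.243). Whether reads running on past the end of Il2ra were counted for Gm39759 was not tested.

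**Figure D3:**
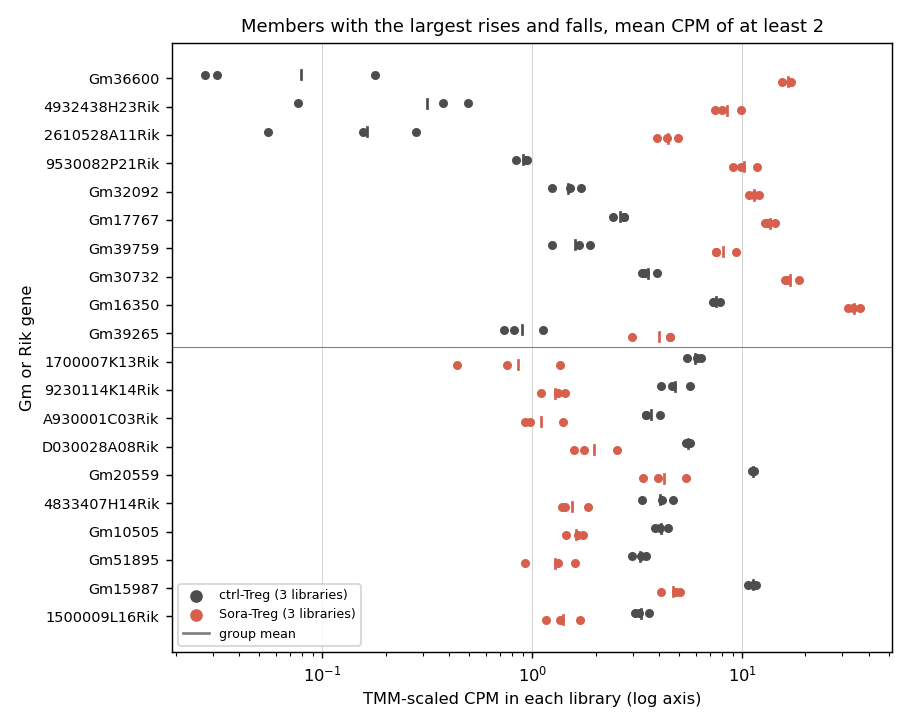
Points are the TMM-scaled CPM of each of the 3 ctrl-Treg (gray) and 3 Sora-Treg (red) libraries on a log axis, with short bars at the group means, for the 10 members with the largest rises (top) and the 10 with the largest falls (bottom) among DEGs of at least 2 mean CPM whose groups do not overlap. Gm36600 spans the widest range, from under 0.2 CPM in ctrl-Treg to over 15 CPM in Sora-Treg libraries.

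Gm16350 (chr8:14957193-14961201) was more abundant, at 7.37, 7.86 and 7.26 CPM in ctrl-Treg and 33.5, 31.8 and 36.3 CPM in Sora-Treg libraries (log2 ratio 2.18 ± 0.08, SE, with adjusted p = 1.33e-16). It lies inside Arhgef10, on the opposite strand. Arhgef10 rose by 1.72 ± 0.05 (SE, with adjusted p = 1.05e-17). A further lncRNA in that gene, Gm35285, was at 0.299 ± 0.215 and 2.09 ± 0.618 CPM (SD, n = 3). I730030J21Rik, 1.13 kb upstream of the glycosyltransferase gene Galnt6 on the same strand, rose from 15.8 ± 1.29 to 43.3 ± 2.28 CPM (log2 ratio 1.46 ± 0.07, SE, with adjusted p = 1.46e-14), and Galnt6 rose by 0.93 ± 0.03 (SE, with adjusted p = 1.69e-18). Gm39265 rose from 0.892 ± 0.206 to 4.02 ± 0.898 CPM.

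The lncRNA falls were smaller on the log scale. Gm32569 had the largest, from 3.47 ± 0.618 to 0.304 ± 0.0541 CPM (log2 ratio -3.48 ± 0.30, SE, with no p since it reached 1 CPM in ctrl-Treg libraries only). 9230114K14Rik starts 0.135 kb from Dhx15, a splicing helicase gene transcribed the other way. It was at 5.66, 4.09 and 4.63 CPM in ctrl-Treg and 1.32, 1.10 and 1.43 CPM in Sora-Treg libraries (log2 ratio -1.90 ± 0.20, SE, with adjusted p = 2.76e-08), while Dhx15 changed by -0.13 ± 0.03.

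A930001C03Rik (chr19:4439323-4448325) was at 4.04, 3.49 and 3.48 CPM in ctrl-Treg and 0.923, 0.972 and 1.40 CPM in Sora-Treg libraries (log2 ratio -1.73 ± 0.23, SE, with adjusted p = 7.48e-07). It overlaps Rhod, a small GTPase gene on the opposite strand, which fell by 2.37 ± 0.15 (SE, with adjusted p = 5.28e-12). 4833407H14Rik, which overlaps the lncRNA Mirt1 on the opposite strand, fell from 4.06 ± 0.692 to 1.55 ± 0.255 CPM, and Mirt1 fell by 2.08 ± 0.20 (SE, with adjusted p = 4.76e-09). D030028A08Rik overlaps the transcription factor gene Sp2 and fell from 5.52 ± 0.113 to 1.96 ± 0.504 CPM (log2 ratio -1.49 ± 0.18, SE, with adjusted p = 2.33e-07), while Sp2 changed by -0.15 ± 0.06.

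The most abundant lncRNAs among the larger falls were Gm31619 (18.6 ± 0.155 to 8.91 ± 0.331 CPM), Gm20559 (11.2 ± 0.0901 to 4.25 ± 1.04 CPM), Gm15987 (11.2 ± 0.538 to 4.66 ± 0.506 CPM) and Gm36572 (9.34 ± 0.609 to 4.07 ± 0.254 CPM, SD, n = 3). Gm10505 and Gm51895 fell by 1.35 on the log2 scale each. In all 6 of these the ctrl-Treg libraries lay above the Sora-Treg libraries. The naming rule required this of Gm20559, Gm15987, Gm10505 and Gm51895, and the groups were fully separate for 63.7% of all genes.

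Members also differed in genomic position. The span of 213 members overlapped a counted gene on the opposite strand and that of 46 a gene on the same strand only. A further 67 started within 1000 bases of an opposite-strand gene without overlapping it, 253 did none of these, and for 57 the strand was not given. DEGs were 20 higher (9.39%) and 14 lower (6.57%) of the 213, and 4 (8.70%) and 2 (4.35%) of the 46. They were 4 (5.97%) and 1 (1.49%) of the 67, and 31 (12.3%) and 10 (3.95%) of the 253. Of all genes tested 6.3% were higher and 4.97% lower DEGs, and of all members 10.99% and 4.40%. The classes include members that entered through 1 group alone. The use of strand in the counting is not given in the sources used here, so for overlapping genes the reads of both partners cannot be told apart.

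The change of a member resembled that of its nearest tested gene with a proper name more where they overlapped or lay within 10 kb than farther apart. Over 41 pairs that overlap on the same strand, Pearson's r between the log2 ratios was 0.59. It was 0.39 over 165 pairs that overlap on opposite strands, 0.46 over 191 pairs apart by up to 10 kb, 0.03 over 157 pairs apart by 10 to 100 kb and 0.16 over 52 pairs farther apart. Among other genes at the same floor and their nearest such neighbour, r was 0.30, 0.15, 0.16, 0.20 and 0.05 in the same order, over 190 to 5277 pairs. Spearman's rank correlation was 0.55, 0.33, 0.32, 0.13 and 0.21 for members in this order, and 0.41, 0.18, 0.16, 0.15 and 0.04 for other genes. By rank the drop beyond 10 kb among members was thus smaller than by Pearson's r. All points share the same 6 libraries, and overlapping genes can share reads, so these values describe the pairs and carry no p. The pairs include members that entered through 1 group alone, whose change was part of their choice.

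**Figure D4:**
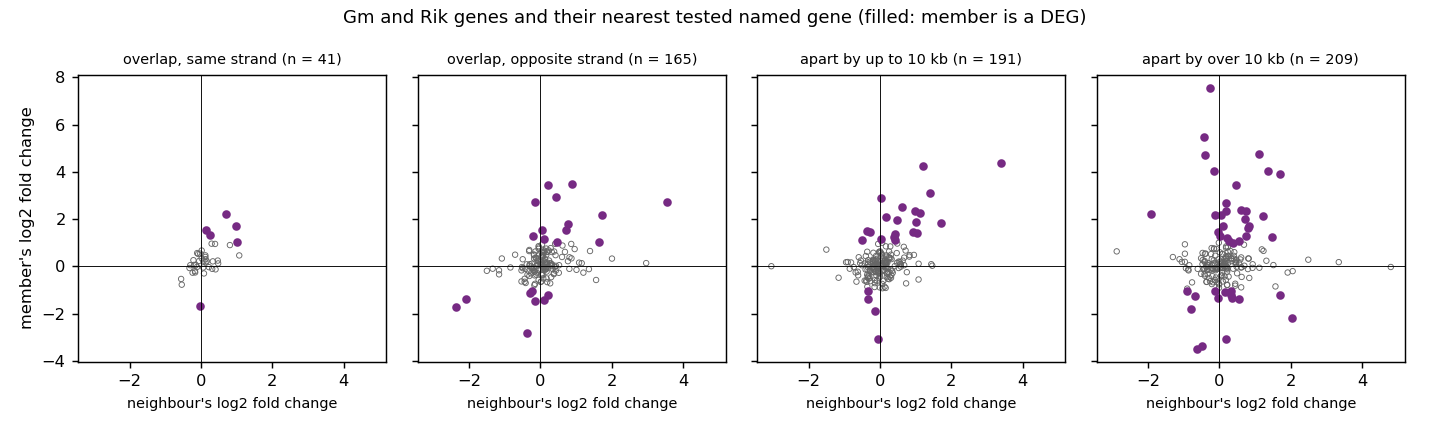
Each point is a Gm or Rik gene with its own log2 fold change (vertical) and that of its nearest tested named gene (horizontal), split by overlap and distance, with members that were DEGs filled. Points run along the diagonal at overlap on the same strand (r = 0.59, n = 41) and spread without a clear slope at distances over 10 kb.

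For 18 of the 98 DEG members the neighbour was a DEG in the same direction, and for 3 in the other. For a further 43 the neighbour passed the p limit alone in the same direction and for 16 in the other, and for 18 it was not called. The sign was thus shared by 61 of 80 DEG members with a called neighbour (76.2%), beside 457 of 682 other DEGs (67.0%), and this difference was not tested. Of the 98 DEG members, 39 entered through Sora-Treg and 11 through ctrl-Treg libraries alone, and the sign was not counted without them. Some same-direction pairs, chosen after their values were seen, are given here. Rbpj, the nuclear partner of Notch, rose by 1.22 ± 0.03 and the lncRNA Gm40304, 8.67 kb upstream, was at 0.127, 0.247 and 0.219 CPM in ctrl-Treg and 4.15, 3.17 and 3.99 CPM in Sora-Treg libraries. Satb1, a chromatin organizer of T cells, rose by 1.23 ± 0.03 and Gm20098, 49.4 kb upstream, from 1.06 ± 0.202 to 4.66 ± 0.402 CPM (edgeR adjusted p = 8.01e-09).

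Cd28, the main costimulatory receptor, rose by 1.04 ± 0.05 (SE), and 2310016D23Rik downstream of it was at 0.542 ± 0.104 and 1.46 ± 0.119 CPM. Ly6a, the activation marker Sca-1, rose by 1.71 ± 0.05, with Gm41348 beside it at 0.564 ± 0.202 and 2.02 ± 0.380 CPM. Kit, a receptor tyrosine kinase that Sora inhibits, rose by 1.35 ± 0.04, with Gm32558 downstream at 0.0873 ± 0.1004 and 1.55 ± 0.190 CPM. The neurotrophin receptor gene Ntrk3 rose by 3.38 ± 0.09, with E430016F16Rik at its 5′ side at 7, 0 and 2 counts in ctrl-Treg and 37, 67 and 75 counts in Sora-Treg libraries. The edgeR adjusted p of these neighbours lay between 7.24e-19 and 4.42e-15. Like Gm40304, these 4 members entered through Sora-Treg libraries alone and were named after their values were seen.

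Other members changed beside a neighbour that was not called or fell. Gm46289, named after its values were seen, lies inside Vmp1, an autophagy gene. It was at 2.90, 1.70 and 2.57 CPM in ctrl-Treg and 11.6, 10.1 and 10.1 CPM in Sora-Treg libraries (log2 ratio 2.15 ± 0.15, SE, with adjusted p = 3.52e-11), while Vmp1 was at 76.0 ± 1.13 and 81.1 ± 3.86 CPM (edgeR adjusted p = 0.0600). The nearest tested gene with a proper name to Gm52919 was Parp11, 126 kb away, which fell by 0.42 ± 0.06 on the log2 scale (SE, with adjusted p = 2.70e-06). Gm52919, also named after its values were seen, had 0, 0 and 3 counts in ctrl-Treg and 42, 43 and 54 counts in Sora-Treg libraries, a ratio of summed CPM of 47.1 (95% exact counting interval 15.8 to 231). That interval covers counting error only and leaves out the spread between libraries. The log2 ratio of Gm52919 was 5.49 ± 0.64 (SE), and 8.62 without ctrl-Treg library 3, which held all ctrl-Treg counts.

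Of the 67 members that start close to an opposite-strand gene, 10 (14.9%) were higher and 13 (19.4%) lower at an adjusted p under 0.05. These shares stand beside 29.7% and 29.9% of all genes tested, and the median log2 ratio of the 67 was -0.02. The smallest adjusted p among rises, after that of 1810037I17Rik, were those of 2810408A11Rik, D630039A03Rik, C920009B18Rik and 1110059E24Rik. 2810408A11Rik, whose start lies beside Neurl4, rose from 1.40 ± 0.431 to 5.56 ± 0.283 CPM (log2 ratio 1.98 ± 0.20, SE, with adjusted p = 1.12e-08), and Neurl4 by 0.47 ± 0.04. The other 3 rose by 0.38 to 0.48. Falls included 6030458C11Rik (31.7 ± 0.914 to 24.1 ± 0.340 CPM), which starts 0.125 kb from Drosha, the nuclear enzyme of miRNA processing, and Drosha changed by -0.33 ± 0.05 (SE, with adjusted p = 4.11e-06). 2810004N23Rik fell by 0.50 ± 0.06 beside Gnpat, which was not called (edgeR adjusted p = 0.643), and 4930579G24Rik by 0.71 ± 0.12 beside Etfdh.

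Some members contain small RNA genes in their span. Of 8 members with snoRNA genes inside, 1 was higher and 2 lower at an adjusted p under 0.05, 4 had an unadjusted p under 0.05, and none was a DEG with edgeR or DESeq2. The largest change among them was that of 5730408K05Rik, which contains Snora57, at 4.17 ± 0.321 and 2.22 ± 0.252 CPM (log2 ratio -0.91 ± 0.18, SE, with adjusted p = 1.28e-04). Of 12 members with miRNA genes inside, 2 were DEGs higher, 2 DEGs lower and 5 not called. Among all genes tested, 29.7% were higher and 29.9% lower at an adjusted p under 0.05, and 6.3% and 4.97% were DEGs.

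A330023F24Rik (chr1:195017399-195037908), the host of the miR-29 sequences shown above, was at 0.813, 0.659 and 0.626 CPM in ctrl-Treg and 2.04, 1.29 and 1.32 CPM in Sora-Treg libraries. All 3 Sora-Treg values were above the ctrl-Treg values, which its entry through Sora-Treg libraries alone required. Its level was low (log2 ratio 1.13 ± 0.33, SE, with no p by the rule on 1 group). 3110082I17Rik, whose span contains Mir339, fell from 16.6 ± 0.875 to 11.1 ± 0.288 CPM (log2 ratio -0.58 ± 0.08, SE, with adjusted p = 2.45e-06). It overlaps Gpr146 on the opposite strand, which rose by 1.56 ± 0.04 (SE, with adjusted p = 3.98e-19). These 3 hosts were named after their values were seen.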

How the data were processed

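RNA-seq counts of 3 ctrl-Treg and 3 Sora-Treg libraries were used, grouped by the sample labels. Raw counts for each gene symbol were deposited by the authors, and FPKM values that equal the deposited counts per length and library total (largest relative difference 1.09e-06). Per the study's methods reads were aligned with Bowtie2 to GRCm38, while the submitters' processing notes name fastp, HISAT2, HTSeq, R 3.2.0, DESeq2 and GRCm39. Which of these made the files, and the use of strand, is not given in the sources used here. Gene symbols were matched to RefSeq GRCm38.p6 (97.5% found, 636 of 637 members), from which all coordinates, types and sequences come, with strand also from GENCODE (583 members). Promoter entries were found for 497 members.

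Counts were tested with edgeR 4.0.16 in R 4.3.3 (quasi-likelihood test, TMM scaling, filterByExpr, no covariate, Benjamini-Hochberg over 13463 genes). The biological coefficient of variation was 4.29%. Standard errors are those the F statistic implies. No source used here says if cultures or animals were separate, so p-values measure the spread between these libraries. Counts were also simulated for control against sorafenib, with this same coefficient of variation for every gene. In them 200 genes at 1 CPM or more were changed by a known fold beyond the fold limit. At both call limits edgeR recovered 100% of these among 13481 tested, with 6.10% false among calls at the p limit alone. Genes whose spread is larger than this were not simulated. DESeq2 1.42.0 recovered 100% among 14324 genes and limma 3.58.1 94.5% among 12620. Alternatives were other scalings, filters and tests, robust fitting, a replicate block, each library left out, FPKM with limma and other member thresholds.

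The members, gene lists and rules were chosen with earlier results of these data known. Named were Gm36600, the 10 largest rises and 10 largest falls among DEGs without overlap at a mean CPM of at least 2, the 8 members with the highest CPM and the 8 with the highest FPKM, the 5 smallest adjusted p in each direction by RefSeq type and among members with a divergent start, 2 gene lists, and 3 genes at each side of the threshold. Of these, called lncRNAs and protein-coding genes are described and most uncalled pseudogenes are not, 1 divergent member is left out, and any other gene was named after its values were seen. A zinc finger class and a ribosomal protein class were not run, for want of protein sequences and gene descriptions.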

Additional observations from a re-analysis of the deposited data

How the results depend on the processing

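The count of DEGs depended most on the test scale and on the member threshold. With limma on log2(FPKM + 0.1), 41 members were higher DEGs, and with limma on log2(FPKM + 1), with or without a filter, 23 were higher and 8 lower. Adding a pseudocount reduces folds at low levels by construction, and 515 members passed the FPKM filter. FPKM rest on library totals, and with log2(FPKM + 0.1) 120 members were higher and 148 lower at any fold. Requiring 1 CPM in all 6 libraries left 24 higher and 12 lower DEGs and 115 members higher at any fold, and 2 CPM in 3 libraries left 36 higher DEGs. The 341 members that overlap no other gene held 40 higher and 12 lower DEGs, and 94 and 60 at any fold. The 578 members at 1 CPM in both groups, an alternative chosen after seeing the data, held 31 and 17. These sets have fewer genes. Under the other scalings, filters, DESeq2 and robust fitting each count stayed within 1.5 times the reported one, and DESeq2 shared 98 of its 100 DEG members with the edgeR fit. With a library left out, higher DEGs ranged from 71 to 75 and lower from 25 to 32.

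With the replicate number as a block, 72 members were higher and 28 lower DEGs, and 177 and 109 at any fold. Same-numbered libraries did not deviate together (correlations -0.0438, 0.0591 and 0.0299). These values cannot decide if same-numbered libraries shared an animal or a culture, since they do not record origin, and no source used here gives it.

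Of 1127 values of 67 named members under 17 alternatives, 1096 kept their direction and side of the threshold, 16 lost and 14 gained significance, and 1 changed sign. The losses concern 2410006H16Rik, 4932438A13Rik, 1810058I24Rik, 1110038B12Rik, C920009B18Rik and 1110059E24Rik, and the gains 9530068E07Rik and Gm14681, most of them with libraries scaled by their totals or on FPKM. The sign changed for the log2 fold change of Gm14295, not called in any fit, which spanned -0.0164 (without Sora-Treg library 2) to 0.23 as single libraries were left out. Leaving out a library moved the log2 ratio of Gm36600 between 7.16 and 8.97 and that of Gm52919 between 4.89 and 8.62, both near the counting limit in ctrl-Treg libraries. Depth limits all members that are at a few counts in 1 group.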

Other observations

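One member is placed on chromosome Y. Gm33272 (chrY:90793687-90806846), a lncRNA, had 109 to 204 counts in each of the 6 libraries, while 4 genes of the male-specific part of that chromosome, Ddx3y, Eif2s3y, Kdm5d and Uty, had 6, 16, 3 and 1 counts over all libraries together. It was chosen after its values were seen, and a sequence shared with another chromosome was not tested.

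Among Gm and Rik symbols under the member threshold, 562 entered the edgeR test, and 60 of them were higher and 34 lower DEGs. Of all genes tested, 6.3% were higher and 4.97% lower DEGs. The 562 lie at a few counts and are not described singly.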
